A study of Mus musculus with 9 samples.

Results

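The adult haemoglobin genes and a pair of further erythroid genes were followed in mouse kidney cortex, in 8 genes of the 17963 in the deposited table. The 8 genes were the alpha-globin genes Hba-a1 and Hba-a2, the beta-globin genes Hbb-bs, Hbb-bt, Hbb-b1 and Hbb-b2, the haem synthesis gene Alas2 and the red cell membrane gene Epb42. Their rows were found by Entrez gene identifier and the read counts of a gene's transcripts were summed. They had been selected on the measured counts, for a near-total loss of counts in both treated groups, so every value of theirs against control is a description with no test.

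RNA sequencing had been done on 9 libraries, 3 in each of 3 groups, all labelled day 4 and wild type (WT). Control mice received saline by intraperitoneal injection and pure water into the stomach. The cisplatin group received cisplatin, a platinum cancer drug that injures kidney tubules, by the same injection route and pure water into the stomach. The third group received the same drug injection and YSJZD (Yishen Jiangzhuo decoction, a herbal preparation) into the stomach, and is called YSJZD here. The labels name no strain, age or dose, and they do not say whether each library came from its own mouse, so p-values measure only the spread between these libraries. The libraries held between 15029286 and 16690482 counts.

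Haemoglobin of adult mice is a tetramer of alpha and beta chains, each carrying a haem group. Its messages are made in erythroid precursors and remain in reticulocytes, the young red cells that circulate after losing their nucleus. The first haem synthesis step in these cells is run by Alas2 and in other cells by Alas1, and mature red cells carry protein 4.2, the product of Epb42, bound under the membrane to band 3, the anion exchanger encoded by Slc4a1. The adult beta locus of laboratory mice occurs in alternative haplotypes: Hbb-bs and Hbb-bt lie on one, Hbb-b1 and Hbb-b2 on the other. In a bulk tissue sample, fewer cells of a type and less RNA per cell cannot be told apart.

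The alpha-globin genes are near-identical copies, which limits how their reads can be divided. Coding sequences were those of the GENCODE transcripts matched to the RefSeq records of the genes, on the GRCm38.p6 assembly. The 429 coding bases of Hba-a1 and Hba-a2 differed at 1 position, C381T. Positions are counted from 1 at the first base of the start codon, here with the Hba-a1 base first. The 444 coding bases of Hbb-bs and Hbb-bt also differed at 1 position, C417T, with the Hbb-bs base first. The stretches around these positions are shown because they are the only coding letters by which a read can be given to one copy of a pair; the capital marks the differing base.
Hba-a1: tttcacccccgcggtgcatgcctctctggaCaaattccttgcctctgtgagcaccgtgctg
Hba-a2: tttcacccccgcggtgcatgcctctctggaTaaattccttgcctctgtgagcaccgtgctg
Hbb-bs: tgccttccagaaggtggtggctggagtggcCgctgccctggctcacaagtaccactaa
Hbb-bt: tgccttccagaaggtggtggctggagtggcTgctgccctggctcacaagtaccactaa

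Upstream sequence was found for 6 of the 8 genes in the RefSeq promoter table of GRCm38.p6. The 250 bases before the transcription start are shown for 5 genes, because genes of both globin clusters and Alas2 were near 0 in the same libraries while Epb42 kept counts in YSJZD. Capitals mark GATAA (the core letters read by GATA factors such as GATA1), CACCC (read by KLF1), CCAAT and TATAA, each searched on both strands, so that the reverse complement of each is also marked; matches that overlap or abut form longer capital runs, as with CCAAT in Hbb-bt and CACCC and TATAA in Alas2. Hba-a1 lies at chr11:32283422-32283671 (plus strand), Hbb-bs at chr7:103827929-103828178 (minus), Hbb-bt at chr7:103813924-103814173 (minus), Alas2 at chrX:150547167-150547416 (plus) and Epb42 at chr2:121036878-121037127 (minus).
Hba-a1: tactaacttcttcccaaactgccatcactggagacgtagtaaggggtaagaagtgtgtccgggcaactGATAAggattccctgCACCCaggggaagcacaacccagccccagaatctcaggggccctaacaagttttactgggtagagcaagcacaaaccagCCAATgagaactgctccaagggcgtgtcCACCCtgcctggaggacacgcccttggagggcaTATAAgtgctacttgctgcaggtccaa
Hbb-bs: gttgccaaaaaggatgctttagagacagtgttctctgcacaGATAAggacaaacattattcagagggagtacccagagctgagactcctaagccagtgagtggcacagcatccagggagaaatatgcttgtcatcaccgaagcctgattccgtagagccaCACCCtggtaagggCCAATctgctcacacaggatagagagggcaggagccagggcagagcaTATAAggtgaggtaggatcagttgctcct
Hbb-bt: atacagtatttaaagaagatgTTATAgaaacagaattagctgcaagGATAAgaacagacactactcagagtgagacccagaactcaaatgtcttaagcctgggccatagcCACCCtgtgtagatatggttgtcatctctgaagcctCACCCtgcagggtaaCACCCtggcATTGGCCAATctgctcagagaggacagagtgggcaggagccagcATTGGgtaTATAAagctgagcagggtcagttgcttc
Alas2: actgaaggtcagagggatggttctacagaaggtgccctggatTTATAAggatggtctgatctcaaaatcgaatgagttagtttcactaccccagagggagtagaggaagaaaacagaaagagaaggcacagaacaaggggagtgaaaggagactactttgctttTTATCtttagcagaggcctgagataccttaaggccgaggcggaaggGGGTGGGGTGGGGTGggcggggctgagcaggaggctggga
Epb42: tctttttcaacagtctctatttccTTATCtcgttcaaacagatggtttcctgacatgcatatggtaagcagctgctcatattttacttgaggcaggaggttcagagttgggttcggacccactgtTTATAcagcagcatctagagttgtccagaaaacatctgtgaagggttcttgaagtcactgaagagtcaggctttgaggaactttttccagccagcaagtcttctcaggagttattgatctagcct

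All 6 upstream stretches held GATAA, which 22.6% of the 32851 promoters of the table hold in the same 250 bases. CACCC was found in 5 of the 6, all but Epb42, against 52.0% of all promoters, and 10.1% held both. CCAAT was found in the 4 globin genes and in 33.8% of all promoters, and TATAA in all 6 and in 22.8%. The Hba-a2 stretch at chr11:32296242-32296491 shared an unbroken run of 247 bases with that of Hba-a1. These matches describe letters and are not evidence of binding.

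Haemoglobin messages were abundant in control kidney and nearly absent from both treated groups. Summed over the 6 haemoglobin genes, the control libraries held 7510, 4450 and 15526 counts. The cisplatin libraries held 27, 17 and 21 counts, and the YSJZD libraries 17, 18 and 14. Each control library was far above every treated library, and the treated groups lay side by side. On the CPM scale (counts divided by library size, with edgeR's TMM factors), the level was 633 ± 360 (SD, n = 3) in control, 1.25 ± 0.252 in cisplatin and 1.00 ± 0.175 in YSJZD, so that the control mean was 508 times the cisplatin mean and 632 times the YSJZD mean. As a share of all counts, haemoglobin took between 0.0296% and 0.0984% in control, between 0.000106% and 0.000162% in cisplatin and between 8.81e-05% and 0.00012% in YSJZD.

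**Figure D1:**
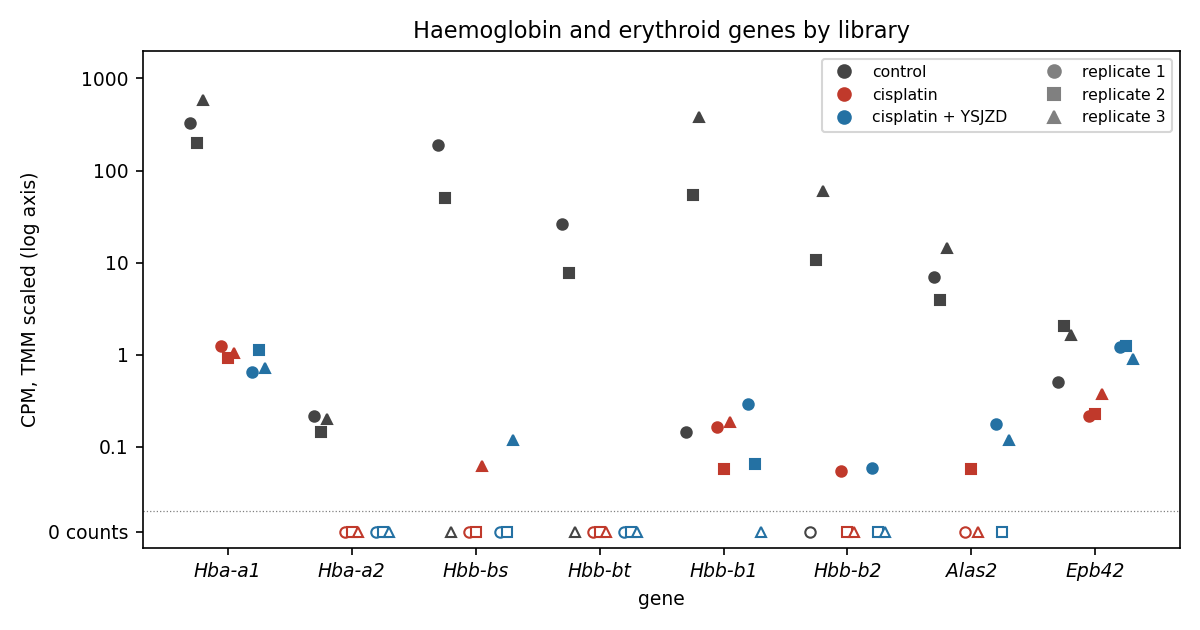
Each point is 1 library: the vertical log axis is CPM scaled by TMM factors, colours are the 3 groups and shapes the replicate numbers, and open symbols below the dotted line are libraries with 0 counts. Control libraries stand far above the treated ones for Hba-a1 (200 to 590 against at most 1.25) and Alas2, each beta gene has control libraries at or near 0, and Epb42 in YSJZD lies among the control values.

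Both kinds of chain were low in the treated groups. The alpha genes summed to 330, 200 and 590 CPM in control, to 1.25, 0.913 and 1.06 in cisplatin and to 0.642, 1.12 and 0.712 in YSJZD. The beta genes summed to 216, 124 and 439 CPM in control, to 0.217, 0.0571 and 0.248 in cisplatin and to 0.350, 0.0656 and 0.119 in YSJZD. No treated library came near a control library in either sum. The fitted log2 difference from control was -8.43 ± 0.46 (SE) for alpha and -10.49 ± 0.67 for beta in cisplatin, and -8.82 ± 0.48 and -10.41 ± 0.67 in YSJZD. Both treated groups were compared with the same 3 control libraries. Of the 8 genes, 3 passed edgeR's filter on low counts (Hba-a1, Alas2 and Epb42), and these 3 in cisplatin and 2 in YSJZD were past an adjusted p of 0.05 against control, beside 54.6% and 19.3% of all 13954 tested genes in either direction; the choice of the genes had used these contrasts, and nothing is read from the counts.

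The control libraries also held more alpha than beta message, by a narrow range. In control, the alpha sum was 1.53, 1.62 and 1.34 times the beta sum in counts. Per length, in FPKM, it was 1.82, 1.92 and 1.58 times the beta sum. In the treated libraries the count ratio was 5.75, 16.0 and 4.25 in cisplatin and 1.83, 17.0 and 6 in YSJZD, where the beta sum was only 1 to 6 counts. The treated ratios are too coarse to order the groups, and no test was made of them.

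The single alpha genes were unequal in the table. Hba-a1 was assigned 4534, 2749 and 8899 counts in control, 23, 16 and 17 in cisplatin and 11, 17 and 12 in YSJZD. Hba-a2 was assigned 3.10, 1.61 and 2.55 counts in control and 0 in all 6 treated libraries. Hba-a1 thus took between 99.93% and 99.97% of control alpha counts, a division that rests on few distinguishing bases and is uncertain. Pooled over a group, the Hba-a1 level in control was 353 times that in cisplatin (95% exact interval 272 to 468) and 468 times that in YSJZD (343 to 655). These intervals, like the others on counts here, cover counting error only, and reads without molecular identifiers are not independent molecules. For Hba-a2 all treated libraries were at 0, so the treated groups were put at 3 counts. With control counts rounded to whole numbers in each library (8 in all), the control level was 3.26 times the cisplatin floor and 3.08 times the YSJZD floor. The unrounded control sum of 7.26 would give lower values.

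The 3 control libraries did not use the same beta genes. Control 1 held 2613 counts of Hbb-bs and 358 of Hbb-bt, with 2.45 of Hbb-b1 and 0 of Hbb-b2. Control 3 held 5712 counts of Hbb-b1 and 912 of Hbb-b2, with 0 of Hbb-bs and of Hbb-bt. Control 2 held all 4: 698 of Hbb-bs, 105 of Hbb-bt, 751 of Hbb-b1 and 145 of Hbb-b2. The pair Hbb-bs and Hbb-bt therefore made up 99.9% of beta counts in control 1 (95% exact Clopper-Pearson interval 99.8 to 100%), 47.3% in control 2 (44.9 to 49.7%) and 0% in control 3 (0 to 0.0557%). The 3 intervals do not overlap, so the libraries labelled as replicates of one group differed in their beta-globin genes by more than counting error, while their alpha to beta ratios were close.

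**Figure D2:**
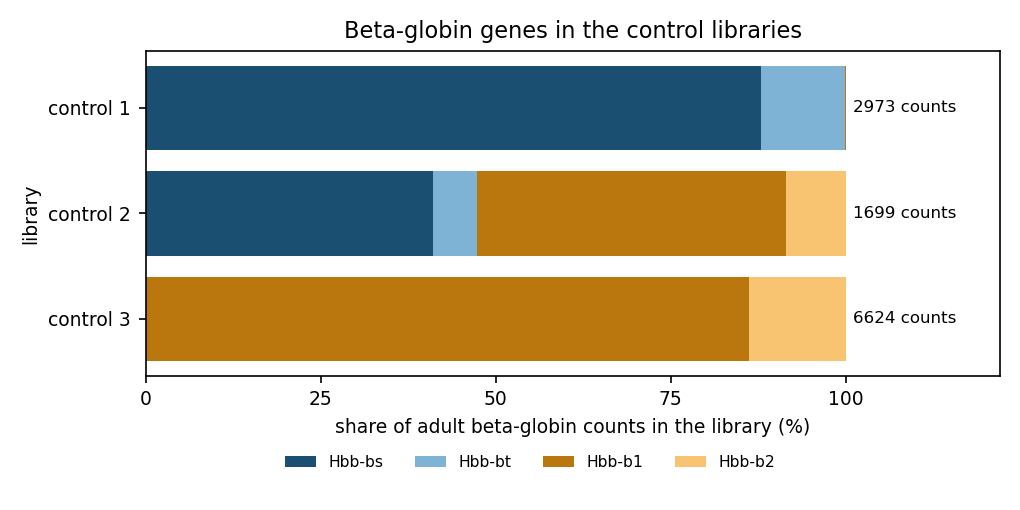
Horizontal bars give, for each control library, the share in % of adult beta-globin counts assigned to each of the 4 genes, with the number of beta counts at the right. Hbb-bs and Hbb-bt fill the bar of control 1 (99.9%), Hbb-b1 and Hbb-b2 fill that of control 3, and control 2 is divided, with 47.3% for Hbb-bs and Hbb-bt.

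Within each pair the division was steady. Hbb-bs had 7.30 and 6.67 times the counts of Hbb-bt in controls 1 and 2, and Hbb-b1 had 5.18 and 6.26 times those of Hbb-b2 in controls 2 and 3. The treated libraries held too few beta counts to place them: Hbb-b1 had 3, 1 and 2.67 counts in cisplatin and 5, 1 and 0 in YSJZD, Hbb-bs had 1.33 in cisplatin 3 and 2 in YSJZD 3, and Hbb-bt had none. With 4 beta counts, cisplatin 1 at a share of 0% for Hbb-bs and Hbb-bt allows up to 60.2%.

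Because a control library could lack a beta gene altogether, the single beta genes overlapped between control and treated libraries although their sum did not. Of the 8 genes, 4 had all control libraries above all cisplatin libraries (Hba-a1, Hba-a2, Alas2 and Epb42), beside 31.0% of all tested genes lower without overlap. Against YSJZD the number was 3 (Hba-a1, Hba-a2 and Alas2), beside 19.5%. Hba-a2 had not passed the filter, so it is outside the tested genes of these shares. Its control libraries held only 1.61 to 3.10 counts. Pooled over control, Hbb-b1 was 1130 times its cisplatin level (95% exact interval 548 to 2810) and 1250 times its YSJZD level (572 to 3400). Hbb-bt, at 0 in every treated library, was at least 189-fold higher in control than in cisplatin and at least 178-fold higher than in YSJZD. Hbb-bs and Hbb-b2 rested on 1 or 2 counts in each treated group: Hbb-bs in control was 4050 times its cisplatin level (726 to 160000) and 1910 times its YSJZD level (530 to 15800), and Hbb-b2 was 1290 times (232 to 51100) and 1220 times (219 to 48300).

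Alas2, the erythroid form of the enzyme that starts haem synthesis, was low in the same libraries. It had 96, 54 and 220 counts in control, 0, 1 and 0 in cisplatin, and 3, 0 and 2 in YSJZD. The 3 control libraries stood in the order of their haemoglobin, control 3 highest and control 2 lowest, and no treated library came near them. The pooled control level was 452 times that of cisplatin, on 1 count (95% exact interval 80.7 to 17900), and 85.6 times that of YSJZD (36.3 to 265). The table lists 2 Alas2 transcripts, and the more abundant one took 78.2%, 63.2% and 79.9% of Alas2 counts in the control libraries.

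Alas2 kept a near-fixed proportion to haemoglobin among the control libraries. For each 1000 haemoglobin counts there were 12.8, 12.1 and 14.2 Alas2 counts, a highest to lowest ratio of 1.17, while the haemoglobin level itself ranged 3.17-fold. Of 11385 genes with at least 30 counts in every control library, the median ratio of highest to lowest was 1.25 and 0.87% were as spread as haemoglobin. Slc4a1, the band 3 gene, had 49.5, 27.4 and 73.9 CPM in these libraries, the same order as haemoglobin, and 90.5, 84.5 and 71.9 counts for each 1000 of haemoglobin. The order control 3 over control 1 over control 2 was found in 15.9% of those genes. With 3 libraries these proportions are a description.

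**Figure D3:**
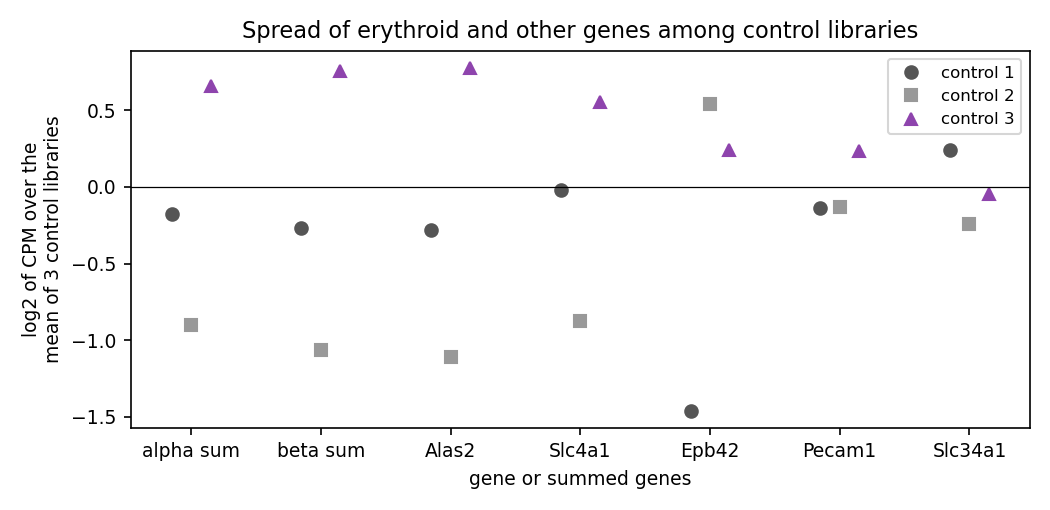
The vertical axis is log2 of each control library's CPM over the mean of the 3 control libraries, for the summed alpha and beta genes, Alas2, Slc4a1, Epb42, the endothelial gene Pecam1 and the proximal tubule gene Slc34a1. Alpha, beta, Alas2 and Slc4a1 share the order control 3, control 1, control 2, and Epb42 is lowest in control 1.

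Epb42 did not share the near-total loss by which the 8 genes were chosen. It had 7, 28 and 25 counts in control, 4, 4 and 6 in cisplatin and 21, 19 and 15 in YSJZD. Its level was 1.4 ± 0.796 CPM in control, 0.273 ± 0.0866 in cisplatin and 1.12 ± 0.200 in YSJZD. All cisplatin libraries were below all control libraries, but the YSJZD libraries lay within the control range, above control 1 and below the other two. The fitted log2 difference from control was -2.34 ± 0.56 in cisplatin and -0.32 ± 0.49 in YSJZD. For each 1000 haemoglobin counts the control libraries held 0.932, 6.29 and 1.61 Epb42 counts, so Epb42 did not keep the proportion that Alas2 kept.

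YSJZD against cisplatin was the comparison the choice of genes had not used directly, although it drew genes low in both groups. Hba-a1 could be tested here. Alas2 and the beta sum had passed the filter only through their control libraries and are given as counts. Epb42 had 4, 4 and 6 counts in cisplatin, under the filter's minimum count, and 21, 19 and 15 in YSJZD. Too few control libraries reached that minimum, so Epb42 passed only with its YSJZD libraries, the higher side of the comparison. Its low cisplatin counts had also entered the choice of genes. Its edgeR result is therefore printed as a description, and nothing is concluded from its p. With that limit, Epb42 was called at an adjusted p under 0.05, beside 35.4% of all tested genes called in either direction. It was higher in YSJZD by 2.02 ± 0.56 on the log2 scale (95% interval 0.77 to 3.26, edgeR quasi-likelihood test, Benjamini-Hochberg adjusted p = 0.0186), in 3 of 3 libraries without overlap, beside 23.7% of tested genes higher without overlap. The call rests on few counts: over the alternatives the edgeR adjusted p ran from 0.00773 to 0.0635, and it was lost without cisplatin 1 (0.0635), without cisplatin 2 (0.0589) and without YSJZD 2 (0.0552).

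For the alpha chain, no difference between YSJZD and cisplatin was detected at this depth. The alpha genes summed differed by -0.39 ± 0.52 on the log2 scale (95% interval -1.55 to 0.76, edgeR adjusted p = 0.586), and Hba-a1 alone by -0.39 ± 0.52 (adjusted p = 0.587). The interval reaches a log2 difference of -1.55, so it does not show that the groups were alike. The beta genes together had 4, 1 and 4 counts in cisplatin and 6, 1 and 2 in YSJZD, and Alas2 had 1 count in all in cisplatin and 5 in YSJZD. At such counts the treated groups could not be compared for beta-globin or Alas2.

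**Figure D4:**
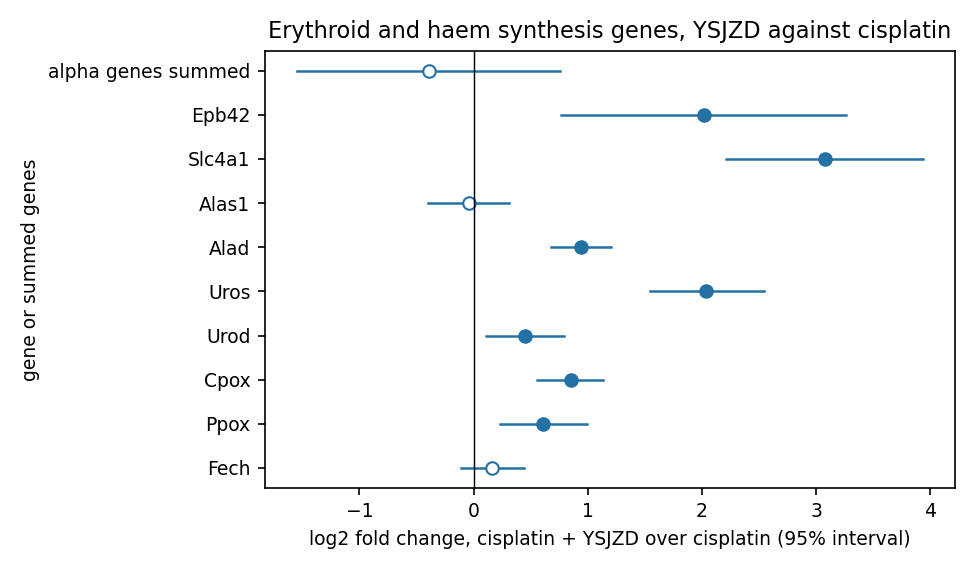
Points are fitted log2 fold changes of YSJZD over cisplatin and lines their 95% intervals, for the summed alpha genes, Epb42, Slc4a1 and 7 haem synthesis genes other than Alas2; filled points have an edgeR adjusted p under 0.05. The alpha interval crosses 0, whereas Epb42 (2.02), Slc4a1 (3.08) and Uros (2.04) lie to the right. The Epb42 point is a description: the gene passed the filter only with its YSJZD libraries, and nothing is concluded from its filled mark.

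Slc4a1, the membrane partner of protein 4.2, changed in every comparison and did not lie at the bottom in YSJZD. Its level was 49.5, 27.4 and 73.9 CPM in control, 2.17, 1.88 and 1.49 in cisplatin and 11.8, 14.04 and 21.2 in YSJZD. The 3 groups did not overlap. It fell in cisplatin by 4.76 ± 0.40 on the log2 scale against control (edgeR adjusted p = 1.01e-05), differed by -1.68 ± 0.34 in YSJZD against control (adjusted p = 0.00755), and was higher in YSJZD than in cisplatin by 3.08 ± 0.39 (adjusted p = 0.000405). For each 1000 haemoglobin counts the Slc4a1 counts were between 71.9 and 90.5 in control, between 1140 and 1940 in cisplatin and between 11900 and 25600 in YSJZD. Band 3 is also made by acid-secreting intercalated cells of the collecting duct; the 8 collecting duct genes of the marker list, Slc4a1 included, summed to between 353 and 551 CPM in control, 302 and 595 in cisplatin and 453 and 674 in YSJZD. Of the 8, 1 was higher and 3 lower in cisplatin against control, 0 and 1 in YSJZD against control, and 3 and 0 in YSJZD against cisplatin. Slc4a1 is itself among those called. Over all tested genes the higher and lower shares were 28.6% and 26.0%, 9.93% and 9.37%, and 17.4% and 18.0%. Aqp2, the water channel of principal cells, made up much of the sum. Atp6v1b1, a proton pump subunit of intercalated cells, had 63.4, 53.0 and 54.8 CPM in control, 11.6, 21.5 and 14.6 in cisplatin and 40.8, 34.1 and 57.0 in YSJZD. It was lower in cisplatin than in control by a log2 of -1.84 ± 0.25 (edgeR adjusted p = 0.000159) and higher in YSJZD than in cisplatin by 1.47 ± 0.25 (0.00173). Aqp6, another intercalated cell gene, differed by -1.82 ± 0.27 (0.000284) and 1.65 ± 0.27 (0.00147). Other genes of the list did not follow this course. Atp6v0d2 had 25.7, 24.6 and 19.1 CPM in control, 27.5, 51.9 and 35.0 in cisplatin and 36.4, 29.4 and 35.8 in YSJZD. Foxi1 had 24.6, 26.9 and 24.6 CPM in control and 17.7, 42.4 and 29.8 in cisplatin. Slc26a4 had 50.9, 52.1 and 36.0 CPM in control and 12.4, 42.2 and 44.4 in cisplatin. The part of intercalated cells in the Slc4a1 values was not tested.

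Other marker genes of red cell precursors were low in every group and did not repeat the haemoglobin pattern where they could be tested. Of 17 such genes, 16 were in the table and 12 of these had under 10 counts in every library; 4 were tested, and of these Slc4a1 alone was called in any comparison. Klf1, the transcription factor that reads CACCC in globin promoters, had 3, 3 and 17 counts in control, 17, 6 and 3 in cisplatin and 7, 11 and 9 in YSJZD, and its log2 difference from control was -0.11 ± 0.75 in cisplatin (edgeR adjusted p = 0.913) and 0.06 ± 0.75 in YSJZD (0.966). Tal1, an erythroid transcription factor also used by endothelium, had 18, 27 and 28 counts in control, 43, 34 and 23 in cisplatin and 11, 17 and 19 in YSJZD, and differed from control in cisplatin by 0.15 ± 0.36 (0.74). Sptb, a spectrin chain, differed by 0.72 ± 0.36 in cisplatin (0.112), a value that was 1.22 and called without control 3 (0.0119). In YSJZD against cisplatin Tal1 (-0.98 ± 0.37, 0.064) was called without cisplatin 3 (0.0491) and Sptb (-0.81 ± 0.36, 0.101) without control 3 (0.0479). Gata1, another erythroid factor, had 3 counts over the control libraries and 0 in the treated ones, and Nfe2, a globin activator also made in myeloid cells, had 4 in control, 88 in cisplatin and 2 in YSJZD; neither was tested. Without Slc4a1, the marker list summed to between 5.32 and 10.6 CPM in control, 7.70 and 11.4 in cisplatin and 5.28 and 6.43 in YSJZD, and these ranges overlap. Sptb and Tal1 made up most of this sum in each library, so it says little of the other genes. Sptb alone had 3.57, 2.26 and 6.56 CPM in control and 6.84, 7.99 and 5.65 in cisplatin.

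A wider list of 36 erythroid genes outside the 8, of which 31 were in the table and 14 tested, did not move as one. In cisplatin against control 1 was higher and 5 were lower, beside 28.6% of tested genes higher and 26.0% lower. In YSJZD against control 1 was higher and 1 lower, beside 9.93% and 9.37%, and in YSJZD against cisplatin 3 were higher and 0 lower, beside 17.4% and 18.0%. The list's median log2 difference was 0.02, -0.10 and 0.14 in these 3 comparisons, beside 0.04, 0.01 and -0.01 over all tested genes. Its abundant genes are also made by kidney cells. Aqp1, the water channel of red cells and proximal tubule, was lower in cisplatin by a log2 of -2.45 ± 0.25 (edgeR adjusted p = 3.16e-05) and higher in YSJZD than in cisplatin by 1.96 ± 0.25 (adjusted p = 0.000412). Dmtn, the actin bundler dematin, differed by -2.07 ± 0.17 and 1.68 ± 0.17 in the same comparisons (adjusted p = 7.95e-06 and 0.000118). Pklr, the red cell and liver pyruvate kinase, was higher in cisplatin by 1.77 ± 0.47 (adjusted p = 0.00955). Epor, the erythropoietin receptor, was not called in any of the 3 comparisons (adjusted p = 0.468 in cisplatin and 0.947 in YSJZD against control).

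The haem synthesis genes outside Alas2 did not share its loss. Alas1, the enzyme form of non-erythroid cells, had levels of 249, 196 and 213 CPM in control, 263, 233 and 305 in cisplatin and 250, 297 and 230 in YSJZD, and its log2 difference in cisplatin was 0.28 ± 0.16 (edgeR adjusted p = 0.158). Of the 8 genes, 0 were higher and 6 lower in cisplatin against control, 0 and 2 in YSJZD against control, and 5 and 0 in YSJZD against cisplatin, beside 28.6% and 26.0%, 9.93% and 9.37%, and 17.4% and 18.0% of all tested genes. Uros, uroporphyrinogen III synthase, had 36.5, 27.6 and 30.3 CPM in control, 2.77, 4.23 and 2.55 in cisplatin and 11.5, 13.9 and 13.9 in YSJZD, with no overlap between the groups. It was lower in cisplatin by a log2 of -3.30 ± 0.23 (adjusted p = 3.28e-06) and higher in YSJZD than in cisplatin by 2.04 ± 0.22 (adjusted p = 0.000183). Cpox, coproporphyrinogen oxidase, differed by -1.88 ± 0.13 and 0.85 ± 0.13 in the same comparisons (edgeR adjusted p = 3.3e-06 and 0.000984). Alad, the second enzyme of the pathway, differed by -0.86 ± 0.12 and 0.94 ± 0.12 (0.000172 and 0.000372).

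Smaller changes in this pathway depended on single libraries or on scaling. Fech, which inserts the iron, was lower in cisplatin by -0.36 ± 0.12 (edgeR adjusted p = 0.0312); over leave-one-out fits the call was lost without control 1 (0.0854), control 2 (0.0997), cisplatin 1 (0.0557) or cisplatin 2 (0.0957). Urod was lower by -0.53 ± 0.15 (0.0128). With library totals alone as the scaling, Fech (-0.12, adjusted p = 0.395) and Urod (-0.30, 0.0686) were not called and Alas1 was called higher (0.51, 0.00898). In YSJZD against cisplatin, Urod (0.45 ± 0.15, adjusted p = 0.0421) lost its call without any one of control 2 and the 6 libraries compared (up to 0.126), and Ppox (0.61 ± 0.17, 0.0190) without cisplatin 1 (0.0590), cisplatin 2 (0.0534), YSJZD 2 (0.0632) or YSJZD 3 (0.0530).

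Genes high in reticulocytes but used by many cells held calls in both directions, at shares near those of all genes in several cases. Of 24 such genes, 6 were higher and 9 lower in cisplatin against control, 2 and 3 in YSJZD against control, and 5 and 6 in YSJZD against cisplatin. Over all tested genes the higher and lower shares were 28.6% and 26.0%, 9.93% and 9.37%, and 17.4% and 18.0%. Tfrc, the transferrin receptor that brings iron into cells, was lower in both treated groups than in control. It had 141, 143 and 158 CPM in control, 34.6, 28.2 and 31.2 in cisplatin and 27.6, 45.0 and 37.8 in YSJZD. Its log2 difference from control was -2.23 ± 0.18 in cisplatin (edgeR adjusted p = 7.56e-06) and -2.00 ± 0.18 in YSJZD (0.000108). Between the treated groups it was 0.23 ± 0.17 (0.335). Fbxo7, a ubiquitin ligase subunit, was lower in cisplatin (log2 -1.45 ± 0.11, edgeR adjusted p = 6.42e-06). Btg1, an inhibitor of proliferation, was higher there (2.38 ± 0.21, 1.23e-05), as was Ube2l6, an enzyme of ISG15 conjugation (3.28 ± 0.26, 6.08e-06).

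Haem handling genes, and genes of the erythropoietin pathway, also held calls in both directions. Of 18 haem handling genes, 7 were higher and 5 lower in cisplatin against control, 4 and 3 in YSJZD against control, and 5 and 3 in YSJZD against cisplatin, beside the same shares of all genes (28.6% and 26.0%, 9.93% and 9.37%, 17.4% and 18.0%). Cubn and Lrp2, the endocytic receptors of the proximal tubule that take up filtered proteins, were lower in cisplatin (log2 -3.20 ± 0.20 and -3.59 ± 0.29, edgeR adjusted p = 2.43e-06 and 8.06e-06). Slc46a1, a folate carrier that also carries haem, differed by -2.03 ± 0.15 (5.2e-06). Not every gene of the list takes up or breaks down haem. Spi1, a transcription factor, was among the 7 higher in cisplatin (3.26 ± 0.44, edgeR adjusted p = 0.000162). Hmox1, haem oxygenase, named here after its values were seen, was higher in cisplatin by 1.83 ± 0.30 (edgeR adjusted p = 0.00054) and in YSJZD by 1.57 ± 0.30 (0.00538). Epo, the hormone that kidney interstitial cells release to drive red cell production, had 0, 1 and 2 counts in control, 0, 0 and 4 in cisplatin and 0 in all 3 YSJZD libraries, too few to test. Egln1, the oxygen sensor that marks hypoxia-inducible factors for removal, was lower by -0.81 ± 0.12 in cisplatin (adjusted p = 0.000352) and by -0.55 ± 0.12 in YSJZD (0.0114).

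Marker genes of several other cell types moved with the groups. Platelet genes, also borne by blood, summed to between 20.0 and 24.9 CPM in control, 15.5 and 38.1 in cisplatin and 12.8 and 16.0 in YSJZD; of 13 listed, 5 were tested. Of these, 2 were higher and 3 lower in cisplatin against control, 0 and 1 in YSJZD against control, and 1 and 2 in YSJZD against cisplatin. For these counts and those of the cell types below, the shares over all tested genes were 28.6% and 26.0%, 9.93% and 9.37%, and 17.4% and 18.0%. The platelet chemokine genes Pf4 (log2 3.61 ± 0.69, edgeR adjusted p = 0.00135) and Ppbp (3.08 ± 0.72, 0.00466) were the higher ones in cisplatin. Ppbp in cisplatin 3 was 0.683 CPM, near the control libraries (0.53 to 0.583). The lower ones were Itga2b (-1.28 ± 0.26, 0.002), Nrgn (-1.28 ± 0.42, 0.0244) and Gng11 (-0.56 ± 0.22, 0.0494). Endothelial genes summed to between 414 and 511 in control, 263 and 592 in cisplatin and 230 and 271 in YSJZD, where 5 of 9 were lower than in control. In cisplatin against control 1 of the 9 was higher and 4 were lower. Proximal tubule genes summed to between 56855 and 75343 in control, 3142 and 5846 in cisplatin and 14841 and 30022 in YSJZD, with 6 of 7 lower in each treated group than in control. Neutrophil genes summed to between 1.66 and 2.18 in control, 22.2 and 60.3 in cisplatin and 3.50 and 7.36 in YSJZD, with 6 of 6 tested higher in cisplatin. Their part in the haemoglobin values was not tested.

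The genes whose pattern was most like summed haemoglobin over the 9 libraries were Astn1, Npm3, Hsd17b11, Agps, Fhit, Plekhb2, Fsd2 and Nkain2, with Pearson correlations of log2 CPM from 0.9825 to 0.9935. The 9 points share the division into control and treated, and 282 of 13951 tested genes outside the 8 correlated above 0.9. Astn1 had 8.51, 9.62 and 11.1 CPM in control and at most 0.07 in any treated library. Fhit, a nucleotide hydrolase, had 13.8, 13.3 and 10.7 CPM in control and at most 0.22 in a treated library, without the control order of haemoglobin. Of the tested genes, 0.631% had a mean at least 32 times lower in cisplatin than in control and 0.122% in YSJZD than in control; Hba-a1 and Alas2, chosen for this, were among both.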

How the data were processed

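RNA of mouse kidney cortex had been sequenced in 9 libraries. The authors deposited expected counts and FPKM for each of 58075 RefSeq transcripts, per the file headers. RSEM 1.3.1 and DESeq2 1.4.5 are named in the submitters' processing notes, which also name GRCh38, a human build. For the aligner and the build of the mouse genome the answer is the same: not given in the sources used here. Beside these, 6 columns of the authors' group averages were not used. The 8 genes and the gene lists were chosen with earlier results of these data known.

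Expected counts, as deposited, were summed per Entrez gene (17963 genes, of which 17847 matched a RefSeq symbol) and rounded to whole numbers for testing. Reads shared by near-identical globin genes are divided by estimation, so alpha and beta genes were also summed. Genes were tested with edgeR 4.0.16 (R 4.3.3): filterByExpr with a minimum count of 10 kept 13954 and removed 4009, TMM factors ranged from 0.855 to 1.105, and quasi-likelihood tests, two-sided, used all 9 libraries with group as the only term. A gene was called where its p, adjusted by Benjamini and Hochberg's method over all tested genes, was under 0.05. Intervals on count ratios and shares are exact at 95%. A level at 0 was set against a floor of 3 counts over a group. FPKM, as deposited by the authors, served only to compare alpha with beta per length. A planned permutation test of the alpha to beta ratio was left out of the text, since the treated libraries held at most 6 beta counts. The scripts were tested on simulated data. Genes named beside the 8 were the 12 most abundant of the wider erythroid list (some described only by their list), the haem synthesis genes, those with the smallest p in the other lists, Epo and Epor, abundant cell type markers, and the 8 most correlated with haemoglobin; a few genes that this rule names are not reported here.

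Alternatives were DESeq2 1.42.0, its size factors or library totals in edgeR, no filter, a mean of at least 1 CPM, only the 6 libraries compared, the replicate block, and leaving out each library.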

Additional observations from a re-analysis of the deposited data

How the results depend on the processing

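The near-absence of haemoglobin in both treated groups held in every alternative run: the log2 difference of the alpha sum ran from -8.74 to -7.94 in cisplatin and from -9.12 to -8.33 in YSJZD, and that of the beta sum from -10.83 to -9.88 and from -11.32 to -9.81. The value of -11.32 was that without YSJZD 1, which held 6 of the 9 beta counts of its group. The Alas2 difference in cisplatin was -10.07 without cisplatin 2, the 1 cisplatin library with an Alas2 count. Epb42 in YSJZD against control turned from -0.32 to 0.04 without control 2, within a range of -0.72 to 0.04 over the libraries left out in turn. Depth limits the treated libraries to between 14 and 27 haemoglobin counts each.

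Genes called numbered 7615 in cisplatin against control, 2694 in YSJZD against control and 4942 in YSJZD against cisplatin. Leaving out 1 library gave 6576 to 7979, 1607 to 3138 and 3496 to 4871; the second count was 1607 without control 1 and 1686 without control 2. DESeq2 called 8023, 3348 and 5499. Library totals alone moved the median log2 difference of all genes from 0.04 to 0.27 in cisplatin against control and from 0.01 to 0.20 in YSJZD against control, and raised the higher share of calls from 3987 of 7615 to 5183 of 7839 and from 1386 of 2694 to 2394 of 3174. The cause was not tested.

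Same-numbered libraries of different groups did not deviate together (correlations from -0.197 to 0.092 over 9 pairs; 2 of 9 libraries correlated best with one of their own number), so the numbers were not taken as a pairing. With the replicate block, 7347, 2367 and 4590 genes were called, and Urod in YSJZD against cisplatin lost its call (0.44, edgeR adjusted p = 0.0642).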
